A study of Saccharomyces cerevisiae W303 with 24 samples.

Results

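The messenger RNA of 24 aneuploid yeast strains was compared by the size of the chromosome that each strain carries in excess. A disome is a haploid cell with an extra copy of a single chromosome. Strains with an extra chromosome II, XII, XIII, XIV, XV or XVI, the 6 larger ones of the series, formed the large group, and strains with an extra chromosome I, V, VIII, IX, X or XI formed the small group. The labels alone set the groups, and all 24 arrays of the series entered, 12 of them in each size group. The larger chromosomes carried 416 to 566 open reading frames on the array (mean 486) and the smaller ones carried 101 to 380 (mean 265.5). Every chromosome was present in a disome with *UBP6* and in a derivative that lacks it, so that the effect of size was tested among 12 disomes, among 12 disomes-*ubp6Δ*, and over the mean of the 12 pairs.

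The strains were *MATa* haploids of the W303 background grown in YEPD, a rich glucose medium. *HIS3* and *KanMX6*, placed at the same locus on its 2 copies, allow selection for the extra chromosome in medium without histidine and with G418. YEPD is not such a medium, and the paper grew its disomes there for few generations. The disomes carried *CaURA3* between genes, and in the disomes-*ubp6Δ* the same marker replaced *UBP6*, which encodes a deubiquitinating enzyme of the proteasome. The reference RNA on every array was labelled wild-type. A strain was measured on 1 array, so the strain is the replicate (n = 6 in each size group and genotype), and chromosomes III, IV, VI and VII in excess were not analysed here. All 7 *MATa*-specific and all 8 haploid-specific marker genes were measured on all 24 arrays, while of 4 *MATα*-specific genes 1 was measured on all of them and of 5 meiosis genes 1.

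An extra chromosome adds transcripts of many genes and, through their products, loads on ribosomes, chaperones and the proteasome. Yeast cells that divide slowly or meet stress are known to raise genes under the transcription factors Msn2 and Msn4, such as those for trehalose, redox enzymes and small heat shock proteins, and to lower genes for ribosome assembly. The size of the duplicated chromosome is one measure of how much extra gene product a disome has to bear. Throughout, a gene was left out in the strain that carries it in excess, a ratio is the log2 of strain over reference, and a difference is the mean log2 ratio of the large group minus that of the small group. The arrays measure an RNA as a share of the total of a culture, so fewer cells with a transcript and less of it per cell cannot be told apart.

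The arrays fell on 4 slides, and in the disomes the slides followed size. Slide 1 held all 6 small disomes with disomes II and XII, slide 2 held disomes XIII, XIV and XV, and slide 3 held disome XVI with 4 disomes-*ubp6Δ* (I, II, V and VIII), while slide 4 held the other 8 disomes-*ubp6Δ*. Within the disomes-*ubp6Δ* both slides thus held both sizes, but strain II was the only large one on slide 3. The median reference intensity was 715 to 976 on slide 1 and 1928 to 2342 on slide 2, and 1.56 to 9.41% of spots against 0.00799% were marked as outliers. The reference channels differed too, and whether the reference RNA itself differed was not tested. Across genes, the reference channels of disomes I, II, V, VIII, IX, X and XI correlated with each other at r = 0.889 to 0.958 and with those of disomes XIII to XVI at 0.560 to 0.704, while the latter correlated among themselves at 0.978 to 0.997. The reference channel of disome XII, also on slide 1, correlated with the first set at 0.854 to 0.876 and with disomes XIII to XVI at 0.712 to 0.735. Genes on an array are not independent replicates, and these values describe the arrays. Between 5288 and 6132 genes were measured in a disome and between 5837 and 6081 in a disome-*ubp6Δ*. On each of the 24 arrays the highest mean ratio of any chromosome belonged to the labelled one.

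In the disomes, 143 of 5595 genes differed between large and small chromosomes at an adjusted p under 0.05 (2.56%), 62 of them higher (1.11%) and 81 lower (1.45%) in the large group. Of the 143, 109 have a gene symbol. They included ribosomal protein genes, stress genes, replication genes and genes of mitochondrial function, with no more than 4 from any of the 39 gene lists examined. After centring of every array on the genes it does not carry in excess, 137 genes passed, 76 higher and 61 lower, so the share of higher genes was 55.5% in place of 43.4%. At an unadjusted p under 0.05, 27.4% of genes differed. Genes named here and below were chosen on these same strains, so a lack of overlap between the sizes describes them and is no separate support. How many of all genes tested lack overlap was not counted.

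The lowest adjusted p belonged to *KTI11* (YBL071W-A, chromosome II), which encodes a small zinc protein of diphthamide synthesis and of Elongator-dependent tRNA modification. The ratio of *KTI11* was −1.21 in disome XII, −0.83 in XIII, −0.28 in XIV, −0.58 in XV and −0.29 in XVI. Among the 6 small disomes *KTI11* ranged from 0.54 to 0.83 with a median of 0.72. Every large disome was therefore below the reference and every small disome above it, with no overlap, and the difference was −1.33 (SE 0.16, adjusted p = 0.00373). With slide as a random block *KTI11* was the single gene that still passed (−1.52, adjusted p = 0.0172), and without each strain in turn its adjusted p was 0.000599 to 0.0402. As disome II is left out for this gene, disome XII was its only large disome on the slide of the small ones. By limma *KTI11* did not pass with duplicated genes kept (−0.96, adjusted p = 0.142) or as a slope per 100 duplicated genes (−0.43, adjusted p = 0.0728). Among the disomes-*ubp6Δ* the large strains lay between 0.02 and 0.29 and the small ones between −0.39 and 0.66, with a difference of −0.07 (SE 0.18).

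*RPS9A* (YPL081W, chromosome XVI), which encodes a protein of the small ribosomal subunit, had the most negative difference of the called genes with a gene symbol and at least 5 values in each size. Its ratio was −2.45 in disome II, −0.16 in XII, −0.58 in XIII, −0.72 in XIV and −0.56 in XV. The small disomes lay between 0.50 and 0.97 with a median of 0.74. The groups did not overlap and the difference was −1.62 (SE 0.32, adjusted p = 0.0353). The paralogue *RPS9B*, nearly identical in sequence, lies on chromosome II, so the probe of *RPS9A* may read both and its level is uncertain. The groups did not overlap in the disomes-*ubp6Δ* either, where *RPS9A* was −3.86 in strain II, −0.54 in XII, −0.69 in XIII, −0.70 in XIV and −0.69 in XV, against −0.34 to 0.17 (median 0.02) in the small strains, but that difference did not pass (−1.27, SE 0.50, adjusted p = 0.374).

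Genes lower in the large disomes also included *RRG8*, needed for respiratory growth. *RRG8* stood at 1.90 in disome II but at 0.50 in XII, 0.19 in XIII, 0.29 in XIV and −0.00 in XV, while the small disomes ranged from 1.83 to 2.98 with a median of 1.98. Disome II thus lay within the range of the small group, and the difference was −1.54 (SE 0.32, adjusted p = 0.0365). *IRC7*, a beta-lyase of sulfur amino acid metabolism, ranged from −1.27 in disome XV to 0.12 in disome II with a median of −0.59, against 0.27 to 1.29 with a median of 0.80 in the small disomes. No large disome reached the small ones, and the difference of *IRC7* was −1.23 (SE 0.24, adjusted p = 0.0316). The lipoate ligase gene *AIM22* fell by 1.26, the histone acetyltransferase gene *NAT4* by 1.21, *RMP1* of ribonuclease MRP by 1.21, and the isomaltase gene *IMA5* had a difference of −1.10 (adjusted p = 0.0365 for *AIM22*, 0.0494 for *IMA5*, 0.0353 for *NAT4* and 0.0432 for *RMP1*), each with disome II above every other large disome.

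Among genes higher in the large disomes, *SPO12*, a regulator of mitotic exit, had the highest difference of the called genes with a gene symbol and at least 5 values in each size. It was −0.67 in disome II, −0.51 in XIII, 0.40 in XIV, 0.53 in XV and 0.50 in XVI, and in the small disomes it was −1.38 in I, −1.26 in V, −1.39 in IX, −0.91 in X and −2.18 in XI. The groups did not overlap, and the difference of *SPO12* was 1.47 (SE 0.29, adjusted p = 0.0360). *UIP4*, a protein of the nuclear envelope, stood at 0.71 in disome II, 0.92 in XII, 0.66 in XIII, 0.65 in XIV and 2.10 in XV against −0.83 to −0.21 (median −0.29) in the small disomes, again without overlap (difference 1.41, SE 0.24, adjusted p = 0.0316). *SUE1*, which acts in the degradation of cytochrome c, rose by 1.25, the reticulon gene *RTN2* by 1.21, *BOP2* by 1.18, the splicing factor gene *CWC15* by 1.15 and the formate dehydrogenase gene *FDH1* by 1.12. *MF(ALPHA)2*, which encodes alpha-factor and is normally off in *MATa* cells, differed by 1.19 (SE 0.22, adjusted p = 0.0316) with both groups below the reference, at −0.99 to −0.25 in the large and −2.45 to −1.27 in the small disomes. Disome II, on the slide of the small disomes, was the lowest of the large ones at −0.99. With slide as a random block *MF(ALPHA)2* did not pass (0.98, adjusted p = 0.252), nor did it after normexp and loess (0.17, adjusted p = 0.239).

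**Figure D1:**
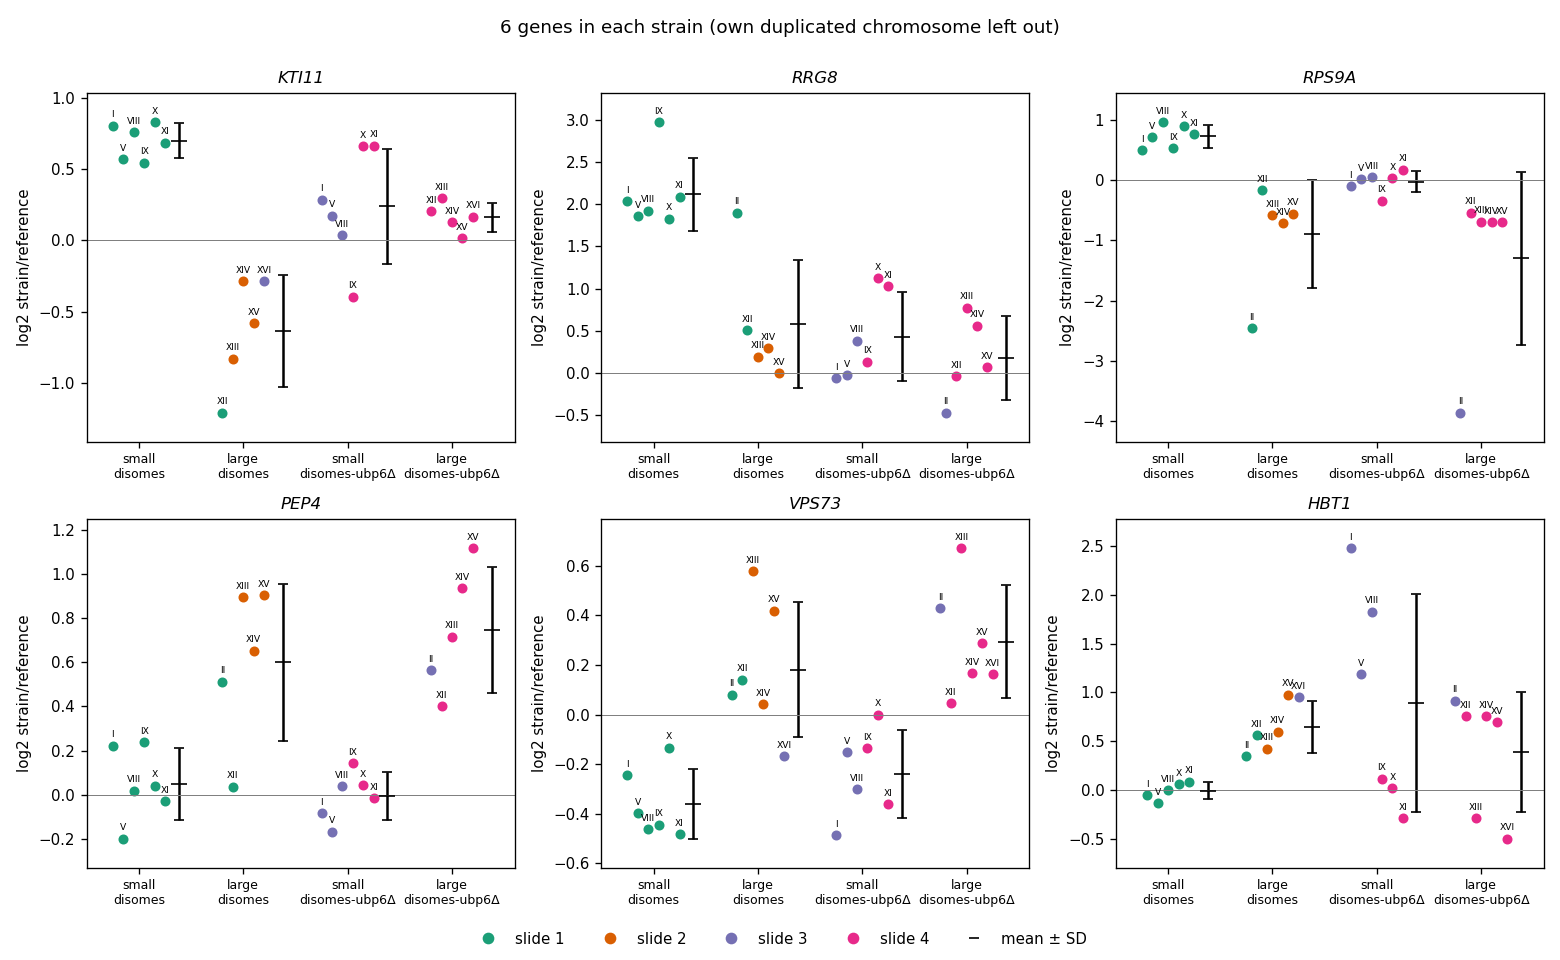
Log2 ratio of strain over reference (vertical axis) of 6 genes in each strain, by size group and genotype (horizontal axis); points are single arrays coloured by slide, and bars are the mean ± SD of a group. *KTI11* lay above 0 in all small disomes and below 0 in all large disomes measured, whereas the disomes-*ubp6Δ* overlapped; *PEP4* did not overlap between the sizes in the disomes-*ubp6Δ*.

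Of the calls in the disomes, 1 at most still passed when slide was taken into account. With slide as a fixed block, or on slide 1 alone, where disomes II and XII stand against the 6 small ones, 0 of 4431 genes passed limma's adjusted test (390 and 436 at an unadjusted p under 0.05), and with slide as a random block 1 did. On slide 1 alone 89 of the 143 genes could be tested, and all 89 kept their direction, with a median size of 0.51 in place of 0.69 over the 12 disomes. Those 8 arrays are part of the 12 that chose the genes, so the direction is no independent check. Disome II lay nearer to the small disomes than to disomes XIII to XVI for 76 of 112 called genes, and disome XII did so for 13 of 113. Both disomes took part in choosing these genes, and the share over all genes tested was not counted. The counts therefore describe the called genes only. Leaving out disome II raised the count from 143 to 1030 (431 higher, 599 lower), and leaving out any strain but II or XII lowered it, to between 6 (without XV) and 42 (without XVI). Without disome II, size and slide part only in disome XII.

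The reference channel taken alone, which holds RNA labelled wild-type on every array, differed between the arrays of large and small disomes for 2113 of 5595 genes (37.8%), and the strain channel alone did for 1834 (32.8%). Of the 143 called genes, 76 also passed in the reference channel and 71 in the strain channel. Size, slide and the reference channel changed together in the disomes, except in disomes II and XII, and cannot be told apart there. In disome XII the reference channel was less like those of the other slide 1 disomes than these were like each other. In the disomes-*ubp6Δ* 0 of 5879 genes passed limma's adjusted test in either channel, and 720 and 343 did at an unadjusted p under 0.05. Large disomes of slides 2 and 3 set against those of slide 1 gave 0 of 4511 genes by the same test (302 at an unadjusted p under 0.05). Small disomes-*ubp6Δ* of slide 4 set against those of slide 3 gave 755 of 5834 (12.9%), in a comparison where the chromosomes differ as well as the slides. Called genes were not spread evenly: 29 of 382 genes on chromosome II passed (7.59%) and 114 of 5213 on the other chromosomes (2.19%). For a gene on chromosome II the large group holds no disome II.

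**Figure D2:**
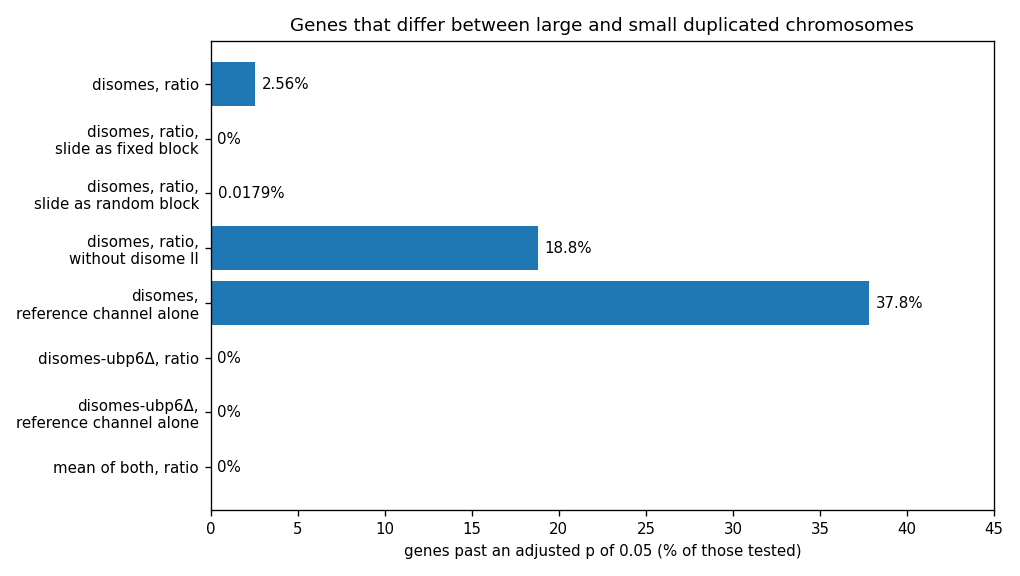
Share of genes that passed an adjusted p of 0.05 (horizontal axis, percent of those tested) for 8 fits of large against small (vertical axis). In the disomes the share was 2.56% for the ratio, 0.0179% with slide as a random block, 18.8% without disome II and 37.8% for the reference channel alone; the disomes-*ubp6Δ* and the mean of both genotypes had none. Without disome II, size and slide part only in disome XII.

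Among the disomes-*ubp6Δ*, 0 of 5879 genes (0.0%) passed limma's adjusted test, and 683 did at an unadjusted p under 0.05 (11.6%), 273 with a higher (4.64%) and 410 with a lower (6.97%) mean in the large group. The genes with the lowest p-values had group ranges that were apart in several cases, but none passed. They were chosen for their low p on these same strains, so ranges apart are no separate support. The vacuolar proteinase A gene *PEP4* (YPL154C, chromosome XVI) stood at 0.57 in strain II, 0.40 in XII, 0.72 in XIII, 0.94 in XIV and 1.12 in XV, against −0.17 to 0.14 with a median of 0.01 in the small strains. All large strains were above all small ones, and the difference was 0.76 (SE 0.14, adjusted p = 0.224). It was 0.64 on slide 3 alone, where strain II is the only large one, and 0.74 on slide 4 alone. *VPS73*, which takes part in protein sorting to the vacuole, ranged from 0.05 to 0.67 (median 0.23) in the large and from −0.49 to −0.00 (median −0.23) in the small strains, with a difference of 0.53 (SE 0.13, adjusted p = 0.311).

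The other genes of this ranking were the iron-sulfur protein gene *NFU1* (0.59), *SEC65* of the signal recognition particle (0.76), *VPS20* of the endosomal sorting machinery (0.71), the Rab GTPase gene *YPT1* (0.47), the deubiquitinase gene *UBP14* (0.41) and the proteasome lid gene *RPN5* (0.59), with adjusted p-values of 0.224 to 0.311. On the negative side, *UBP8*, the deubiquitinase of the SAGA complex, was −0.07 in strain II, −0.36 in XII, 0.44 in XIV, −0.55 in XV and −0.26 in XVI, against 0.47 to 0.98 with a median of 0.91 in the small strains. The 2 groups of *UBP8* did not overlap (difference −0.95, SE 0.18, adjusted p = 0.224), while in the disomes its difference was 0.08 (SE 0.23). The oligosaccharyltransferase gene *OST4* (−0.70), *NOT3* of the Ccr4-Not complex (−0.67), the CTP synthase gene *URA7* (−0.77), *ICY1* (−0.68), *WTM2* (−0.80), *UPF3* of nonsense-mediated decay (−0.47) and *RPS28A* (−0.89) completed the ranking, with adjusted p-values of 0.224 to 0.311 and without overlap for *OST4*, *NOT3*, *URA7* and *ICY1*. The fit on slide 3 alone has strain II as its only large strain, so its calls are not given.

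The genes called in the disomes were looked up in the disomes-*ubp6Δ*, which are on other arrays. Of 135 that could be tested there, 72 had the same sign. An unadjusted p under 0.05 was found for 18 of the 135, 15 of them with the same sign, against 683 of all 5879 genes (11.6%). Taken along the direction of the call, the median difference of the 135 was 0.02 in the disomes-*ubp6Δ*, against a median size of 0.72 in the disomes.

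Over the mean of both genotypes, with each disome and its *ubp6Δ* derivative as 1 replicate, 0 of 5524 genes (0.0%) passed limma's adjusted test and 870 did at an unadjusted p under 0.05 (15.7%), 329 of them higher (5.96%) and 541 lower (9.79%). The genes with the lowest p-values in the positive direction were *ABF2*, which packages mitochondrial DNA (0.59, SE 0.12, adjusted p = 0.114), *VPS73* (0.54, SE 0.11, adjusted p = 0.114), *PEP4* (0.65, SE 0.13, adjusted p = 0.114) and *YPT1* (0.43, SE 0.10, adjusted p = 0.124), followed by *RMR1*, the septin gene *CDC12*, *TAF10* and *UIP4*. For *PEP4* the disomes gave 0.51 in strain II, 0.04 in XII, 0.90 in XIII, 0.65 in XIV and 0.90 in XV against −0.20 to 0.24 in the small strains. Disome XII was thus the large strain that lay among the small ones. In the negative direction stood *RRG8* (−0.90, adjusted p = 0.110), *KTI11* (−0.70, adjusted p = 0.110), *ICY1* (−0.62, adjusted p = 0.110) and the ribosomal protein gene *RPS11B* (−0.55, adjusted p = 0.114), then *MCM10* and *RAD55* of replication and recombination, *ADA2* of SAGA and *NOT3*.

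*ICY1* was 0.18 in disome II, −0.14 in XII, −0.42 in XIV, −0.26 in XV and −0.59 in XVI, and the small disomes ranged from −0.02 to 0.63 with a median of 0.34. Without *UBP6* it was −0.36 in strain II, −0.90 in XII, −0.64 in XIV, −0.89 in XV and −0.86 in XVI against −0.35 to 0.16 with a median of −0.03. Both genotypes thus had the lower values in the large strains, with overlap in the disomes only. In a fit of the 24 arrays with the pair as a block, 4 genes passed: *PEP4* (adjusted p = 0.0228), *VPS73* (adjusted p = 0.0228) and *YPT1* (adjusted p = 0.0301) higher, and *ICY1* (adjusted p = 0.0301) lower. With slide added to this block none of 5719 passed limma's adjusted test (579 at an unadjusted p under 0.05).

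The difference between large and small strains itself differed between the genotypes for 27 of 5524 genes (0.489%), 12 with a higher and 15 with a lower difference in the disomes, and for 1404 at an unadjusted p under 0.05 (25.4%). The alpha-factor gene *MF(ALPHA)2* had a difference of 1.19 among disomes and −0.13 among disomes-*ubp6Δ* (adjusted p = 0.00981 for the change of the difference, which was taken over pairs measured in both). *SPO12* had 1.47 and −0.50 (adjusted p = 0.0180), *CWC15* 1.15 and −0.51 (adjusted p = 0.0335), *KTI11* −1.33 and −0.07 (adjusted p = 0.0335), *RMP1* −1.21 and 0.32 (adjusted p = 0.0492), and *RPC31* of RNA polymerase III −0.70 and 0.35 (adjusted p = 0.0492). Without strains XIII, XIV, XV or XVI in turn the count was 0, and without strain II it was 903. In the disomes size went with slide and the reference channel, while in the disomes-*ubp6Δ* both slides held both sizes. A change between the genotypes therefore cannot be told apart from slide and reference, and no fit of the change took slide into account.

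Gene lists were described by how many members passed and by the median difference, beside −0.02 over all genes tested in each of the 3 comparisons. The general stress genes under Msn2 and Msn4 had the highest median of the lists with more than 4 members in the mean of both genotypes. Of 72 listed, 65 were tested in the disomes, with a median difference of 0.51 and 56 above 0; 4 rose and none fell at the adjusted threshold, against 1.11% of all genes higher. The 4 were *HBT1* (0.65, adjusted p = 0.0353), the reticulon gene *RTN2* (1.21, adjusted p = 0.0365), *PAI3*, an inhibitor of proteinase A (1.05, adjusted p = 0.0483), and the mitochondrial peroxiredoxin gene *PRX1* (0.97, adjusted p = 0.0497). Its median in the disomes-*ubp6Δ* was 0.20, with 50 of 70 above 0 and none past the test. In the mean of both it was 0.32, with 55 of 65 above 0, none past the test and 14 above 0 at an unadjusted p under 0.05, against 5.96% of all genes. *TFS1*, an inhibitor of carboxypeptidase Y (0.81, adjusted p = 0.170), and the aldose reductase gene *GRE3* (0.49, adjusted p = 0.184) had the lowest p-values of the list.

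**Figure D3:**
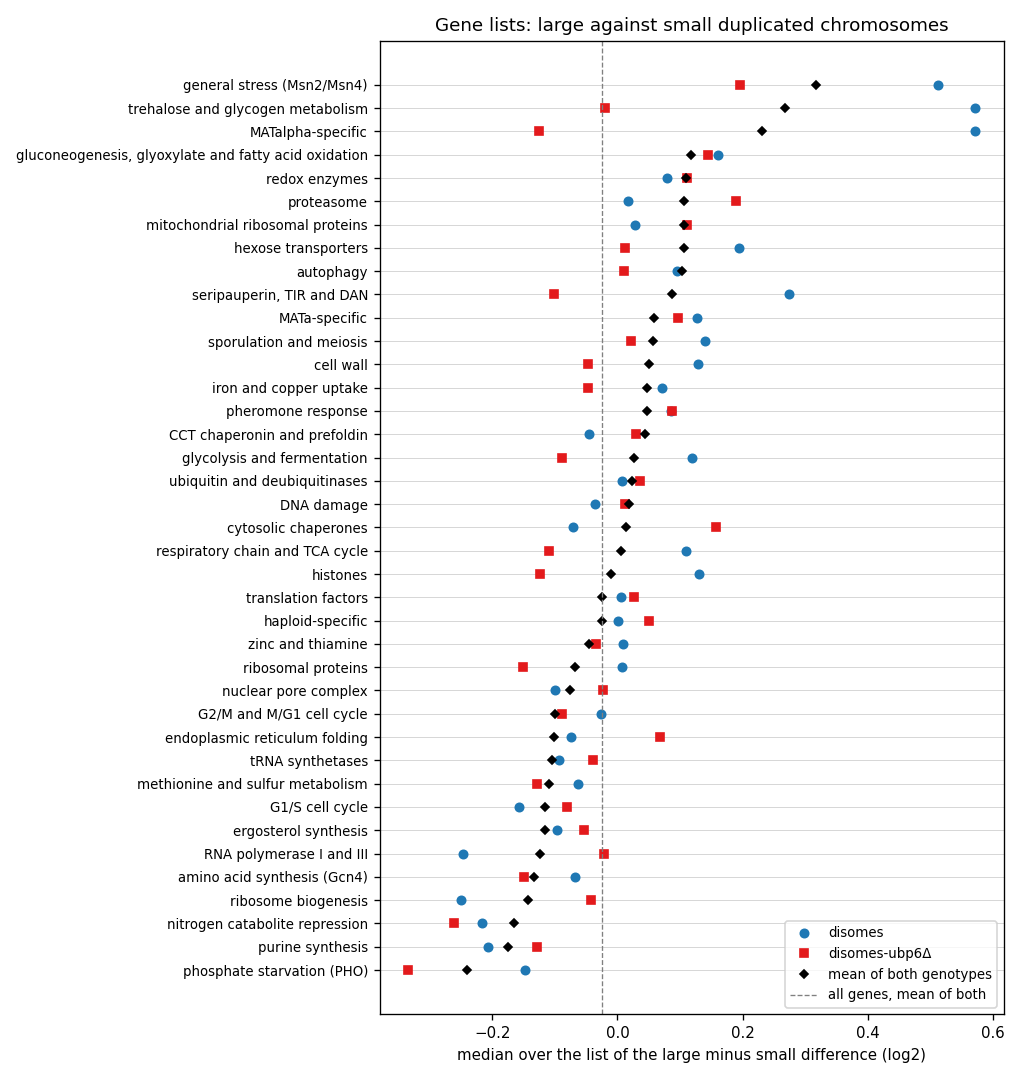
Median over each of 39 gene lists (vertical axis) of the difference between large and small strains (horizontal axis, log2) (circles, disomes; squares, disomes-*ubp6Δ*; diamonds, mean of both); the dashed line is the median of all genes. General stress genes stood at 0.51, 0.20 and 0.32, and phosphate starvation genes at −0.15, −0.33 and −0.24.

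The strains of the large group differed from each other in the stress list. Its median ratio was 0.53 in disome II, 0.01 in XII, 0.76 in XIII, 0.63 in XIV, 1.32 in XV and 0.20 in XVI, against −0.13 to 0.29 (median 0.11) in the small disomes. Without *UBP6* it was 0.39 in strain II, −0.23 in XII, 0.72 in XIII, 0.70 in XIV, 0.81 in XV and −0.04 in XVI, against −0.05 to 0.62 (median 0.17). Strains with an extra chromosome XIII, XIV or XV had the highest values in both genotypes, while those with XII and XVI lay within or below the range of the small strains, so the groups overlapped. On slide 1 alone the median difference of the list was 0.23, on slide 3 alone of the disomes-*ubp6Δ* 0.17 and on slide 4 alone 0.30. Without each strain in turn it was 0.36 to 0.62 for the disomes, 0.12 to 0.36 for the disomes-*ubp6Δ* and 0.24 to 0.48 for the mean, positive in every case, lowest without strain XV or XIII and highest without strain XII.

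None of the 4 stress genes that rose in the disomes passed in the disomes-*ubp6Δ*, and the change of the difference between the genotypes did not pass for any of them (adjusted p = 0.132 for *HBT1*, 0.206 for *RTN2*, 0.0564 for *PAI3* and 0.109 for *PRX1*). *HBT1*, whose product acts in polarized growth, ranged from 0.34 to 0.97 (median 0.58) in the large disomes and was −0.05 in disome I, −0.13 in V, −0.00 in VIII, 0.06 in X and 0.08 in XI. Without *UBP6*, *HBT1* ranged from −0.50 to 0.91 in the large strains and from −0.29 to 2.48 in the small ones. The 3 small strains of slide 3 (I, V and VIII) were at 2.48, 1.19 and 1.83 and those of slide 4 at 0.11, 0.02 and −0.29, so there *HBT1* followed slide and overlapped between sizes. *RTN2* had a difference of −0.10 and *PAI3* of −0.18 in the disomes-*ubp6Δ*, and *PRX1* of 0.39.

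Trehalose and glycogen genes, which serve carbohydrate storage, had a median difference of 0.57 among disomes, −0.02 among disomes-*ubp6Δ* and 0.27 in the mean, with none of 19, 21 and 19 members past the test. In the disomes 10 of 19 were higher at an unadjusted p under 0.05, against 11.9% of all genes. With each strain left out in turn the median lay between 0.39 (without strain XV) and 0.64 among disomes, between −0.11 and 0.15 among disomes-*ubp6Δ* and between 0.17 (without strain XV) and 0.40 in the mean. The acid trehalase gene *ATH1* (0.58, adjusted p = 0.130) and the glycogen debranching gene *GDB1* (0.57, adjusted p = 0.170) had the lowest p-values in the mean. The median difference of the list was 0.17 on slide 1 alone, 0.28 on slide 4 alone and −0.02 on slide 3 alone. The smaller list of redox enzymes had medians of 0.08, 0.11 and 0.11, with *PRX1* past the test in the disomes.

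Ribosome biogenesis genes lay on the other side in the disomes. Of 135 members, 24 were above 0 and the median difference was −0.25. At the adjusted threshold the ATPase gene *RIX7* (−0.72, adjusted p = 0.0480) and the processome gene *UTP20* (−0.44, adjusted p = 0.0480) fell and none rose, against 1.45% of all genes lower; 58 were lower at an unadjusted p under 0.05, against 15.5% of all genes. *RIX7* was −0.88 in disome II, −0.30 in XIII, −0.18 in XIV, −0.94 in XV and −0.59 in XVI against −0.08 to 0.59 (median 0.06) in the small disomes, without overlap. By strain, the median of the list ranged from −0.74 in disome XV to −0.03 in disome XII among the large and from −0.12 to 0.15 among the small disomes. The median difference was −0.04 in the disomes-*ubp6Δ*, with 61 of 135 above 0, and −0.14 in the mean, none past the test in either. Without strain XV the medians were −0.18 among disomes, −0.00 without *UBP6* and −0.08 for the mean. On slide 1 alone it was −0.07. RNA polymerase I and III genes had medians of −0.25, −0.02 and −0.12, with *RPC31* lower in the disomes.

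Proteasome genes were the list of protein turnover in which the disomes-*ubp6Δ* strains of the 2 sizes did not overlap. The strain medians of the 38 genes were 0.05 to 0.18 (median 0.12) in the large and −0.15 to 0.04 (median −0.04) in the small disomes-*ubp6Δ*, and 0.01 to 0.24 against −0.01 to 0.21 in the disomes, where they overlapped. All large disomes-*ubp6Δ* were thus above the small ones. The median difference over the genes was 0.19 in the disomes-*ubp6Δ*, with 31 of 38 above 0, 6 of them at an unadjusted p under 0.05 (4.64% of all genes were) and none past the test, and 0.17 on slide 3 and 0.14 on slide 4 alone. It was 0.02 in the disomes and 0.11 in the mean, where *RPN2* of the base (0.34, adjusted p = 0.197) and *RPN12* of the lid (0.38, adjusted p = 0.245) had the lowest p-values. Cytosolic chaperone genes had medians of −0.07, 0.16 and 0.01, and the list of ubiquitin and deubiquitinases 0.01, 0.04 and 0.02, with none past the test in any comparison.

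**Figure D4:**
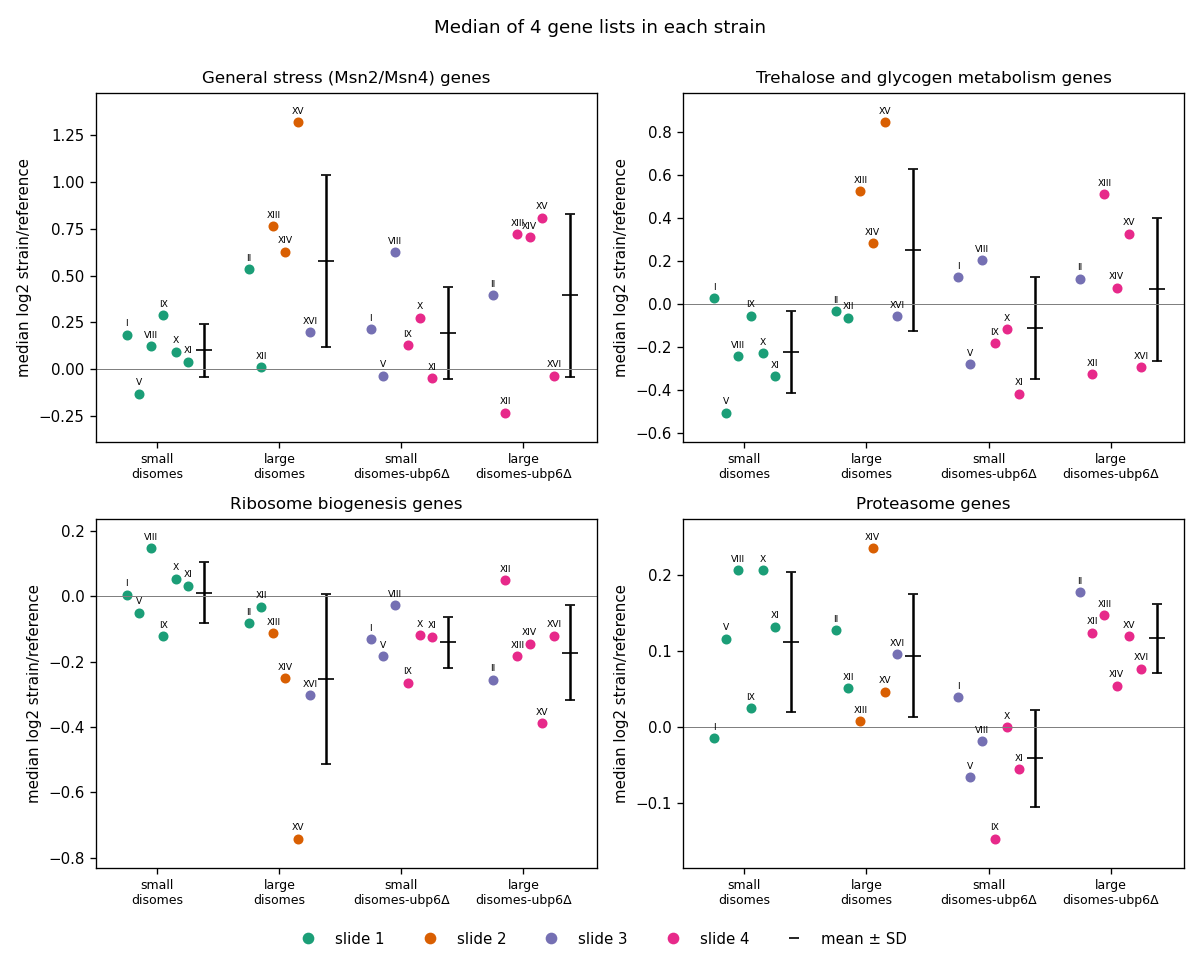
Median log2 ratio of strain over reference (vertical axis) of 4 gene lists in each strain, by size group and genotype (horizontal axis); points are arrays coloured by slide, and bars are the mean ± SD of a group. The stress list was highest in disome XV (1.32) and overlapped between sizes, while the proteasome list did not overlap in the disomes-*ubp6Δ*.

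Ribosomal protein genes had a median difference of 0.01 in the disomes, where *RPL41B* rose (1.01, adjusted p = 0.0353) and *RPS9A*, *RPS11B* (−0.75, adjusted p = 0.0286) and *RPL19A* (−0.83, adjusted p = 0.00886) fell among 132 tested, against 1.11% of all genes higher and 1.45% lower. *RPS11B* ranged from 0.33 to 0.51 (median 0.48) in the small disomes and was −0.71 in disome XII, −0.25 in XIII, −0.15 in XIV, −0.35 in XV and 0.05 in XVI. Many of these genes have near-identical paralogues, whose signals an array probe may mix. In the disomes-*ubp6Δ* the median was −0.15 with 28 of 136 above 0, 22 lower at an unadjusted p under 0.05, against 6.97% of all genes, and none past the test.

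Phosphate starvation genes, which yeast holds down when phosphate is plentiful, had medians of −0.15, −0.33 and −0.24, and in the disomes the secreted acid phosphatase gene *PHO5* fell (−2.15, adjusted p = 0.0494) among 26 tested. *PHO5* was −4.33 in disome XIII, −1.93 in XIV, −2.41 in XV and −2.57 in XVI, and 0.10 in disome I, −0.72 in V, −0.10 in VIII, −0.86 in IX and −1.71 in X. Strains without *UBP6* had −0.15 with an extra chromosome XII, −4.03 with XIII, −1.78 with XIV, −3.51 with XV and −2.86 with XVI against −3.15 to 0.81 (median −1.07). Strain X had the lowest value of the small group in both genotypes, and the difference of −1.59 in the disomes-*ubp6Δ* did not pass (adjusted p = 0.446). On slide 1 alone the median of the list was 0.10 in the disomes, and without strain XIII it was −0.05 in the disomes and −0.14 in the mean.

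Cell cycle lists held further single genes. The strain medians of the G1/S list did not overlap in the disomes, where slide followed size: −0.20 to −0.05 in the large and 0.01 to 0.18 in the small. They overlapped in the disomes-*ubp6Δ*. In the list of G1/S genes the median was −0.16, −0.08 and −0.12, and the histone chaperone gene *ASF1* (−0.94, adjusted p = 0.0365) and the cyclin gene *CLB6* (−0.48, adjusted p = 0.0494) fell in the disomes, 2 of 42 tested against 1.45% of all genes lower, as did *MCM6* of the replicative helicase (−0.48, adjusted p = 0.0381) in the list of later phases. The ribonucleotide reductase gene *RNR2* rose (0.81, adjusted p = 0.0494), with disome II at −0.72 within the small group (−0.78 to −0.54). Purine synthesis (−0.21, −0.13 and −0.18; *HPT1* lower in the disomes by 0.76) and nitrogen catabolite repression (−0.22, −0.26 and −0.17) had negative medians in all 3 comparisons. The remaining calls in lists were *NUP84* of the nuclear pore (−0.41), the initiation factor gene *HCR1* (−0.55) and the thiamine gene *THI80* (−0.55), all lower, and the chitin deacetylase gene *CDA2* (1.46), higher in the large disomes. The other lists had none past the test.

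At the level of whole arrays, the extra chromosome itself was compared between sizes. The mean ratio of the duplicated genes was 0.895 ± 0.0771 (SD, n = 6) in the large and 0.790 ± 0.0696 in the small disomes, a difference of 0.105 (exact two-sided permutation p = 0.0346 over 924 splits, adjusted p = 0.130 over the 12 tests of this kind). Disome XIII was highest at 0.993 and disome I lowest at 0.676. Within slides the difference was 0.0222 (exact permutation p = 0.643 over 28 splits). In the disomes-*ubp6Δ* the means were 0.839 ± 0.125 and 0.903 ± 0.0470 (difference −0.0634, exact permutation p = 0.301), with the large strain XIV apart at 0.591 and the other 5 large strains at 0.856 to 0.933. The difference between sizes differed between the genotypes by 0.168 (exact permutation p = 0.0433, adjusted p = 0.130). Slide followed size in the disomes only, so that change cannot be told apart from slide. Without strain XIV the difference in the disomes-*ubp6Δ* was −0.0136 (exact permutation p = 0.595) and that between the genotypes was 0.115 (exact permutation p = 0.0779). Leaving out each pair in turn, a setting added after seeing the data, gave 0.115 to 0.202 for the latter, with exact permutation p from 0.0195 to 0.0887.

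The spread of the non-duplicated genes, taken as their SD on an array, was 0.528 ± 0.0784 in the large and 0.503 ± 0.0308 in the small disomes (difference 0.0246, exact permutation p = 0.543). It was 0.504 ± 0.0774 and 0.493 ± 0.0485 in the disomes-*ubp6Δ* (0.0112, exact permutation p = 0.762) and gave no call over the pair means (0.0179, exact permutation p = 0.554). Disome XV had the widest spread at 0.664 and the large disome-*ubp6Δ* II the narrowest at 0.376. The level of the non-duplicated genes was taken to show how the scaling of an array moves with its number of duplicated genes. A difference in their mean or median is therefore not read as a change in their expression. The mean of the non-duplicated genes was −0.0104 and −0.0179 in the large and small disomes (exact permutation p = 0.522), where array medians in place of means gave a difference of the other sign, −0.0341 (exact permutation p = 0.00866). Over the pair means the difference was −0.0160 (exact permutation p = 0.212) and, with medians, −0.0246 (exact permutation p = 0.00433). The means were −0.0271 and 0.0125 in the disomes-*ubp6Δ* (difference −0.0396, exact permutation p = 0.0368, adjusted p = 0.130; within slides −0.0281, exact permutation p = 0.0804 over 224 splits). The smallest p that 6 against 6 strains allow is 0.00216, and none of the 12 tests, which do not include those on medians, passed after adjustment.

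**Figure D5:**
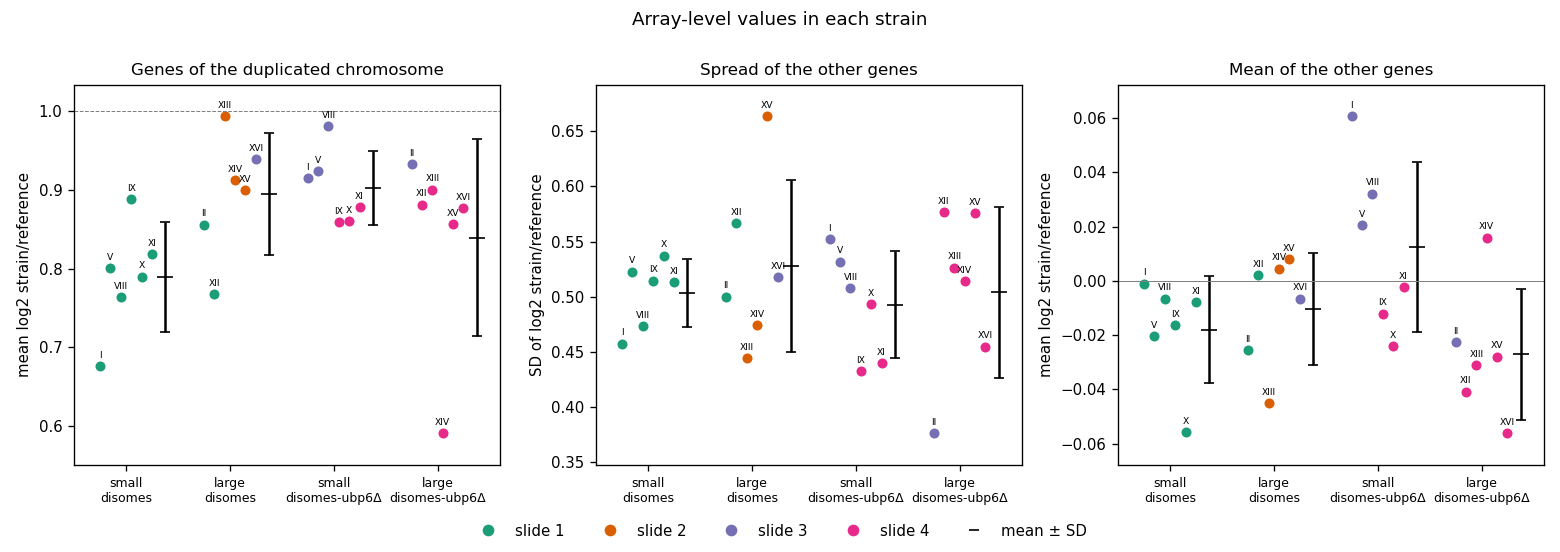
Mean log2 ratio of the genes on the duplicated chromosome, SD of the log2 ratio of the other genes, and mean log2 ratio of the other genes (vertical axes, left to right) in each strain, by size group and genotype (horizontal axes); points are arrays coloured by slide, and bars are the mean ± SD of a group. A full doubling would lie at the dashed line; disome-*ubp6Δ* XIV stands apart at 0.591.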

How the data were processed

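RNA of 24 strains was hybridised with a reference on dual-colour Agilent arrays (13048 features, 6256 probes, 6176 nuclear open reading frames). The authors extracted the scans with Feature Extraction (version 10.7.1.1 per the file headers). As deposited, intensity is given as the median signal of a spot and as a signal that the software had freed of background and normalized between dyes. A log10 ratio of Cy5 to Cy3 accompanies each spot in the deposited files, and the deposited flags mark outlier and dim spots. The deposited table of log2 values from the authors was used as an alternative only.

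Here the log2 ratio of Cy5 to Cy3 was computed from the signals freed of background and normalized between dyes. Controls, outliers and spots dim in both dyes were left out, and the rest were averaged by probe and gene. The labels give Cy5 to the strain on every array, but on the disomes-*ubp6Δ* arrays the duplicated chromosome and the deposited table run the other way, so the sign was turned there. The reference RNA of those arrays was also low in *UBP6*, so what it held beyond its label is not settled. The reference annotation held 5718 of the open reading frames.

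Genes with at least 4 values in each size group were tested with limma (version 3.58.1, R 4.3.3; lmFit and eBayes, Benjamini-Hochberg over all genes tested, threshold 0.05), and single values with exact two-sided permutation tests. The script was tested on simulated data. The number of arrays limits the precision. Whether separate cultures lie behind the strains' arrays is not given in the sources used here, and with 1 array a strain the tests measure the spread between strains. Pairing rests on the shared duplicated chromosome: deviations from the genotype mean correlated at −0.0547 to 0.641 (median 0.317) for the same chromosome, above 0.1 in 11 of 12, and at a median of −0.0408 for different ones.

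The size groups, 39 gene lists and markers were chosen with earlier results of these data known, and the lists were written from general knowledge. Genes were named by rule: in each comparison the 8 highest and 8 lowest differences among genes with a symbol and at least 5 values in each size group that passed, filled up by lowest p; and from each list the 2 members with the lowest p in the mean of both genotypes. Marker genes of the strains were not ranked. Added are the list members past the test. Alternatives were the centring, the filters, normexp with loess, the deposited table, duplicated genes kept, slide, pair and single slides, each strain left out and, chosen after seeing the data, a slope on the number of duplicated genes, slide with size held and each channel alone.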

Additional observations from a re-analysis of the deposited data

Results flagged for a closer look

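Groups of 6 values were searched for a strain apart from the rest, which chance gives in about 1 in 20 groups; 159 groups of named genes were searched besides the array-level values. The mean ratio of the duplicated genes was 0.591 in the large disome-*ubp6Δ* XIV, apart from the other large disomes-*ubp6Δ*. The mean of the non-duplicated genes was −0.0558 in the small disome X, below the other small disomes.

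Disome II stood apart among the large disomes for 5 named genes, each time on the side of the small disomes: *RPL41B* at −1.45, *CWC15* at −0.93, *AIM22* at 0.97, *ASF1* at 0.92 and *IMA5* at 0.98. In *RPL41B*, *CWC15*, *AIM22*, *ASF1* and *IMA5* the disome lies within the range of the small disomes of the same slide.

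Single strains stood apart in 3 further genes within a genotype. *RPS11B* was 0.33 in the small disome V, *RRG8* was 2.98 in the small disome IX, and *UPF3* was −0.14 in the small disome-*ubp6Δ* XI. Over the means of pairs, *NUP84* was 0.0312 in pair VIII of the small group, and in the large group *IZH1* was −0.59 in pair XVI, *RNR1* −0.73 in pair XII, the G protein gene *GPA1* 0.37 in pair XV and *FRE2* 0.0909 in pair XII.

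The large-minus-small difference differed between disomes and disomes-*ubp6Δ* by a test of that change for 27 genes. Such a change cannot be told apart from slide and the reference channel, which followed size in the disomes only. Among the named genes the change was 2.04 for *SPO12*, 1.53 for *MF(ALPHA)2*, 1.66 for *CWC15*, −1.26 for *KTI11*, −1.53 for *RMP1* and −1.05 for *RPC31*. At the level of arrays it was 0.168 for the mean of the duplicated genes and 0.0471 for the mean of the non-duplicated genes (exact permutation p = 0.0433 and 0.0173, both 0.130 after adjustment over 12 tests).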

How the results depend on the processing

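Of 143 genes in the disomes, normexp with loess left 11, keeping the duplicated genes 16, slide as a fixed block 0, slide as a random block 1, slide 1 alone 0 and the slope on duplicated genes 0, and leaving out a strain gave 6 to 1030 (without XV and without II). In the disomes-*ubp6Δ* the count stayed at 0 except on slide 3 alone, where strain II is the only large strain. In the mean of both genotypes the replicate block (pairs on 24 arrays) gave 4, no replicate block 143, and leaving out a strain 0 to 51 (without II). For the change between genotypes leaving out a strain gave 0 to 903 in place of 27. The cause of these shifts was not tested, apart from the fewer genes on single slides. The difference in spread became −0.0145 in the disomes and −0.00236 in the mean as an interquartile range, and without each strain −0.00259 to 0.0413 in the disomes, −0.00339 to 0.0368 in the disomes-*ubp6Δ* and −0.00291 to 0.0335 in the mean. For the duplicated genes of the disomes it was 0.0222 within slides and 0.0825 (without disome I) to 0.131. For the non-duplicated genes it was −0.0341 in the disomes and −0.0246 in the mean as a median, −3.04e-05 to 0.0145 without each disome, −0.0281 within slides and −0.0482 to −0.0299 without each strain in the disomes-*ubp6Δ*. Among 3085 values of named genes under alternatives, 2521 kept direction and side of the threshold, 509 lost the call and 53 gained it. The 2 that turned were *SAG1* in the mean with slide and replicate block (0.0026) and *IME1* with duplicated genes kept (−0.0107). No named result of the disomes-*ubp6Δ* or of the mean had passed at the start, so for most of the 143 named results keeping the side meant staying uncalled. The losses fell on the calls in the disomes: 35 results lost the call under the slope on duplicated genes and 34 with slide as a random block. Dim spots on slide 1, where 8.14 to 17.1% of probes were not well above background, limit low genes of the disomes.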
